A study of Mus musculus with 9 samples.

Results

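Specific granule and mature neutrophil genes are described here in CD11b+ splenocytes of C57BL/6 mice after social threat. The set was defined by name and holds 9 genes, Ltf, Camp, Ngp, Mmp8, Mmp9, Cd177, Retnlg, Ly6g and Ceacam10. Each gene is represented by its probe set with the highest mean over all 9 arrays. Of the 9, 7 had a probe set that names them alone, among 18193 genes with such a probe set, and all 7 were bright enough to be tested, among 13079 tested genes. Retnlg and Ly6g had none in the annotation used and were not analysed here.

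Affymetrix MOE430 arrays measured RNA of 6 mice of the HighThreat group, exposed repeatedly to social threat, with 1 array per animal. The LowThreat group, called control below, held 6 mice kept in conditions without threat, pooled 2 by 2 into 3 pools with 1 array each. All were C57BL/6 mice, and their age is not given in the sources used here. In both groups adherent spleen cells had been selected with magnetic beads for CD11b, the integrin encoded by Itgam. A threat array thus holds 1 animal and a control array 2, and p-values measure the spread between these arrays.

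Neutrophils make their granule proteins in succession while they mature in bone marrow and, under demand, in spleen. Proteases and peroxidase of the primary granules come first, in promyelocytes. The specific granule proteins follow in myelocytes, and gelatinase is made later still, in metamyelocytes and band cells. Which granule genes are expressed is therefore widely used to tell stages of this lineage apart.

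Expression is given as the deposited log2 value of a probe set, and a difference is threat minus control on that scale. Values ran from 0.607 to 13.567 and array medians from 3.19 to 3.22. Genes whose mean lay under 2.66, the 40th percentile of all probe sets, were treated as too dim to test. Of the 13079 genes tested with limma, 5995 (45.8%) were called in either direction, with p adjusted by Benjamini-Hochberg and a threshold of 0.05. The median difference over all tested genes was 0.029. Against the CD11b selection, Itgam had a mean of 8.50 in threat animals and 7.93 in control pools, and all 5 markers of the sort antigen and of myeloid cells rose. The extraction protocol calls the selected cells monocytes. The monocyte and macrophage receptor gene Csf1r averaged 11.95 in threat animals and 11.76 in control pools, and the neutrophil genes described here were also well above the filter value in both groups.

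Of the 7 tested genes of the set, 6 rose in threat animals and none fell, where 23.8% of all tested genes were called as higher. That share depends on the filter, and with one at the 60th percentile 2804 of 9517 tested genes were called higher. In the 6 risen genes of the set all 6 threat values lay above all 3 control values, a pattern found in 21.5% of all tested genes. The median difference of the 7 was 1.53. The largest rises were those of the collagenase gene Mmp8 and of Ceacam10, at 6.79-fold and 6.30-fold, and the smallest was that of Ngp, at 1.47-fold. Camp, the cathelicidin gene, did not pass the test. In bulk RNA, fewer cells of a type and less RNA per cell cannot be told apart, and this holds for every difference below.

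**Figure D1:**
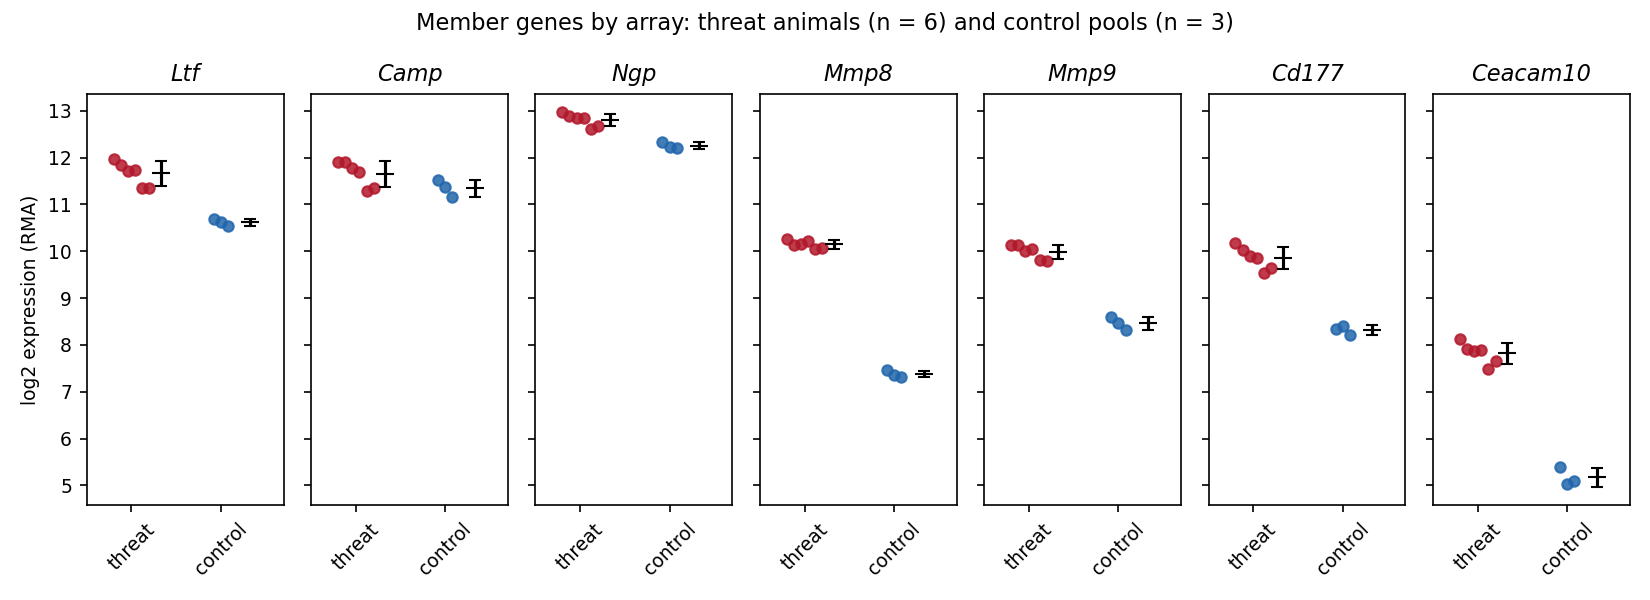
Log2 expression (vertical axis) of the 7 tested genes on each array, with 6 threat animals (red) left of 3 control pools (blue), points side by side in the order of their numbers, and the group mean ± SD in black. The groups are apart in 6 genes and overlap in Camp, where the lowest threat value is 11.29 and the highest control value 11.51.

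Within the set, the transcripts of Ltf, Ngp and Camp, which encode antimicrobial and related proteins of the specific granules, changed least. Ltf encodes lactoferrin, which binds iron and so withholds it from microbes. Its values were 11.98, 11.84, 11.72, 11.75, 11.35 and 11.35 in threat animals 1 to 6, against 10.69, 10.63 and 10.54 in control pools 1-2, 3-4 and 5-6. The lowest threat value stood 0.66 above the highest control value, and threat animals 5 and 6 were the lowest of their group. Ltf averaged 11.66 ± 0.26 in threat animals (SD, n = 6) and 10.62 ± 0.076 in control pools (SD, n = 3). The rise was 1.04 (SE 0.13, limma adjusted p = 2.2e-05), or 2.06-fold.

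Ngp encodes neutrophilic granule protein, a relative of the cathelicidins. It read 12.97, 12.88, 12.84, 12.84, 12.62 and 12.68 in threat animals 1 to 6, against 12.34, 12.22 and 12.19 in the control pools. The groups were apart by 0.28, less than the range of 0.35 among the threat animals themselves. The rise was 0.56 (SE 0.075, limma adjusted p = 5.5e-05). In both groups Ngp lay near the top of the array's scale, whose highest value was 13.57.

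Camp encodes the single cathelicidin of the mouse, an antimicrobial peptide cut from a larger precursor. Threat animals 1 to 6 had 11.91, 11.90, 11.78, 11.70, 11.29 and 11.34, against 11.51, 11.36 and 11.15 in the control pools. Threat animals 1 to 4 were above every pool, and animals 5 and 6 were below control pool 1-2. Camp averaged 11.65 ± 0.27 in threat animals (SD, n = 6) and 11.34 ± 0.18 in control pools (SD, n = 3). The difference of 0.31 (SE 0.14, limma adjusted p = 0.0908) did not pass, and its 95% confidence interval ran from 0.0058 to 0.62 before adjustment. The two-sided exact permutation p, from the 84 ways to split the arrays 6 to 3, was 0.143. The call depended on single animals: without threat animal 5 the difference was 0.38 (limma adjusted p = 0.0255) and without threat animal 6 it was 0.37 (limma adjusted p = 0.0397), while without control pool 5-6 it was 0.22 (limma adjusted p = 0.332). Over the other leave-outs the adjusted p ran from 0.0751 to 0.155.

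The metalloproteinases of the set rose more. Mmp8, the neutrophil collagenase kept in specific granules, read 10.27, 10.14, 10.15, 10.22, 10.04 and 10.06 in threat animals 1 to 6, against 7.46, 7.36 and 7.33 in the control pools. The groups stood 2.58 apart, against a range of 0.23 within the threat group. Mmp8 averaged 10.15 ± 0.088 in threat animals (SD, n = 6) and 7.38 ± 0.071 in control pools (SD, n = 3). The rise was 2.76 (SE 0.060, limma adjusted p = 2.15e-11), and 9 of the 13079 tested genes rose more.

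Mmp9 encodes gelatinase B, the enzyme after which the late gelatinase granules are named. Its brighter probe set read 10.12, 10.13, 10.002, 10.05, 9.81 and 9.80 in threat animals 1 to 6, against 8.60, 8.46 and 8.32 in the control pools. The rise was 1.53 (SE 0.089, limma adjusted p = 3.4e-08), or 2.88-fold, with 1.20 between the lowest threat animal and the highest pool. A further probe set of the gene ran from 9.11 to 9.61 in threat animals and from 7.28 to 7.52 in control pools, and its difference was 1.95 (limma adjusted p = 1.41e-08). Both probe sets were apart between the groups by more than the range within either group.

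The surface and secreted glycoproteins rose as well. Cd177 encodes a membrane-anchored glycoprotein of neutrophils, which in human neutrophils holds proteinase 3 at the cell surface. Its values were 10.17, 10.03, 9.90, 9.85, 9.53 and 9.65 in threat animals 1 to 6, against 8.35, 8.42 and 8.20 in the control pools. The rise was 1.53 (SE 0.12, limma adjusted p = 4.3e-07), or 2.90-fold. The SD was 0.24 among threat animals and 0.11 among pools, and the gap between the groups, 1.12, exceeded the range in each.

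Ceacam10, a member of the carcinoembryonic antigen family, read 8.13, 7.92, 7.88, 7.90, 7.49 and 7.65 in threat animals 1 to 6, against 5.40, 5.03 and 5.09 in the control pools. The rise was 2.66 (SE 0.12, limma adjusted p = 5.3e-09). Its other probe sets disagreed in brightness: one ran from 6.74 to 7.31 in threat animals and from 3.86 to 4.31 in control pools, with a difference of 2.95, and the other stayed between 2.24 and 2.41 in threat animals and 2.05 and 2.30 in control pools, under the filter value in every array. The mean of the 3 probe sets differed by 1.91.

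The 7 genes did not rise by equal amounts. For each of the 21 pairs, the log2 value of one gene minus that of the other was compared between the groups with a two-sided exact permutation test, whose smallest possible p is 0.0119. After Benjamini-Hochberg adjustment over the 21 pairs, 18 differed. Mmp8, Mmp9, Cd177 and Ceacam10 each rose more than Ltf, Ngp and Camp, in 12 of 12 pairs (adjusted exact permutation p = 0.0139 each). The size of that difference ran from 0.48 for Mmp9 over Ltf to 2.45 for Mmp8 over Camp. This division follows the order of the rises themselves, and the 12 pairs share genes and arrays, so that they are not independent.

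Mmp8 exceeded the other metalloproteinase, Mmp9, by 1.24, and Ceacam10 exceeded Cd177 by 1.12 (adjusted exact permutation p = 0.0139 each). Ltf rose by 0.73 more than Camp and 0.49 more than Ngp (adjusted exact permutation p = 0.0139 each). The 3 pairs that did not pass were Cd177 over Mmp9 (0.009), Mmp8 over Ceacam10 (0.11) and Ngp over Camp (0.24, adjusted exact permutation p = 0.0789). The probe sets of Ltf, Camp and Ngp were read in the upper range of the scale, where their mean exceeded that of 99.3%, 99.5% and 99.9% of tested genes, and the part of this range in their smaller rises was not tested.

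**Figure D2:**
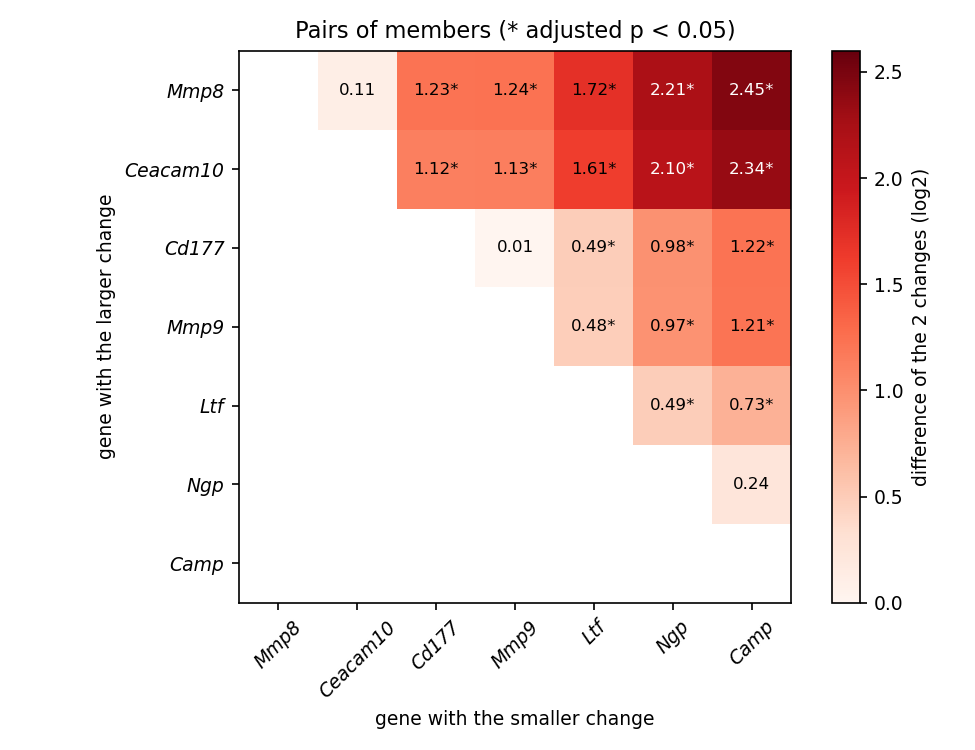
Difference between the changes of each pair of genes (log2), the gene with the larger change in rows and that with the smaller in columns, both in falling order of their change. Asterisks mark the 18 pairs with an adjusted exact permutation p under 0.05, and the 3 unmarked pairs are Mmp8 and Ceacam10, Cd177 and Mmp9, and Ngp and Camp.

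Among the threat animals the genes moved together from array to array. Threat animal 1 had the highest value of the threat group in 6 of the 7 genes and animal 2 in Mmp9. Threat animals 5 and 6 were the lowest 2 in all 7. Among the pools, pool 1-2 was the highest in 6 genes and pool 3-4 in Cd177, and pool 5-6 was the lowest in 6 and pool 3-4 in Ceacam10. Pool 3-4 deviated from the mean of the pools by 0.094 in Cd177 and by -0.14 in Ceacam10. No correlations were computed over the pools alone. Camp spread most for its size of change, over 0.62 among threat animals and 0.36 among pools, and Mmp8 least, over 0.23 and 0.14.

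Over the 6 threat animals, Pearson correlations between the genes ran from 0.81 for Camp and Mmp8 to 0.991 for Ngp and Ceacam10, with Spearman's rho from 0.60 to 1. After adjustment over the 21 relations, 19 of the Pearson correlations had an exact permutation p under 0.05 and 8 of the Spearman ones did. The Pearson exceptions were Camp with Mmp8 (exact permutation p = 0.0708, adjusted 0.0708) and Mmp8 with Mmp9 (exact permutation p = 0.0514, adjusted 0.0540). Without the 2 animals farthest from the median of the first gene of a pair, the correlations ran from 0.056 for Camp and Mmp8 to 0.981 for Ltf and Ngp, so that the correlation of Camp and Mmp8, not called with all 6 animals, rests on those left out. The genes share arrays and normalization.

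**Figure D3:**
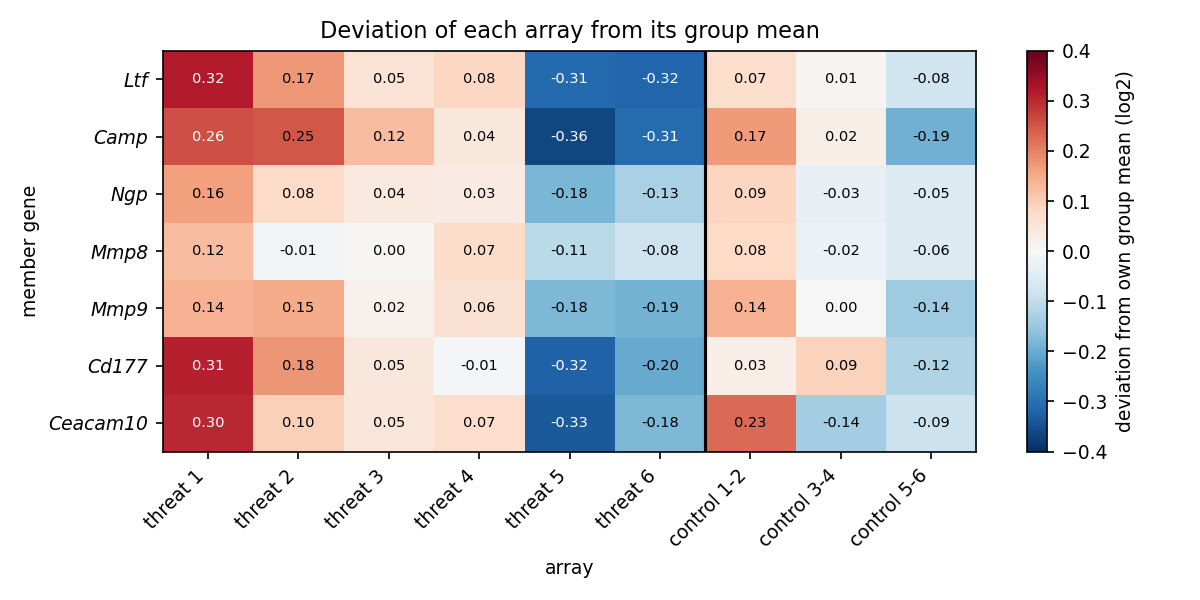
Deviation of each array from the mean of its own group (log2) for the 7 tested genes, threat animals left of the black line and control pools right of it. Threat animal 1 is positive and threat animals 5 and 6 are negative in every gene.

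Cycling precursor markers, taken as a sum, moved in the same way within the threat group. The signal summed over 6 markers (Mki67, Top2a, Ube2c, Ccnb2, Mpo and Elane), on the linear scale, was 995, 942, 855, 789, 610 and 594 in threat animals 1 to 6, against 226, 235 and 201 in the control pools, and all 6 markers rose. Mpo and Elane of that list are also primary granule genes, described below. They had the highest means of the 6 in threat animals, 7.51 and 7.65, and so weigh most in the sum there. The order of the threat animals in the sum is thus not separate from that of the granule genes. B cell markers were lower in threat animals, with 4 of 5 fallen and sums of 197 to 280 in threat animals, the 2 lowest again in animals 5 and 6, and 1093 to 1247 in control pools. Among all 13079 tested genes, 2876 were called lower and 3119 higher. Natural killer cell markers had sums of 109 to 119 in threat animals and 464 to 536 in control pools, with 3 of 4 fallen. Dendritic cell markers, 4 of 5 of which fell, had sums of 103 to 112 in threat animals and 186 to 220 in control pools. T cell markers, with 2 of 3 fallen, had 51 to 62 in threat animals and 78 to 86 in control pools. Platelet and megakaryocyte markers, with 3 of 4 risen, had 222 to 247 in threat animals and 179 to 196 in control pools. Of eosinophil, basophil and mast cell markers 1 of 3 fell, with 33 to 42 in threat animals and 44 to 46 in control pools, and of erythroid markers 1 of 2 rose, with 29 to 32 in threat animals and 28 to 31 in control pools. Those of monocytes and macrophages had 5575 to 6076 in threat animals and 4971 to 5307 in control pools, with 2 of 5 risen and 1 fallen. All sums took in every marker with a probe set, whereas the counts cover tested markers only. Summed but too dim to test were Cd3g, Epx, Cpa3, Fcer1a and Hba-a1. As a gauge of RNA integrity, the 3' probe set of beta-actin exceeded the 5' one by 0.357 ± 0.034 in threat animals (SD, n = 6) and 0.472 ± 0.063 in control pools (SD, n = 3; exact permutation p = 0.0238). For Gapdh the same measure was -0.071 ± 0.088 in threat animals and -0.035 ± 0.052 in control pools (SD, n = 6 and 3; exact permutation p = 0.512). The part of these markers and of RNA integrity in the rises of the set was not tested. The numbers of the animals and pools also follow the order of the array labels, and the 2 cannot be told apart.

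Cd177 and Ceacam10 are direct neighbours in RefSeq's gene order of mouse assembly GRCm38.p6, with no other protein-coding gene between them. Camp and Ngp lie on a chromosome with Ltf and Mmp8, with 8 protein-coding genes between Camp and Ngp and 20 between Ngp and Ltf. The nearest tested genes beside Ltf, Mmp8 and Mmp9 did not pass the test. Ccrl2, next to Ltf, encodes a chemokine-binding receptor and averaged 9.83 in threat animals and 9.83 in control pools. Beside Camp the phosphatase gene Cdc25a rose by 0.22, and beside Ngp the genes Ptpn23 and Klhl18 rose by 0.21 and 0.17 (limma adjusted p = 0.030, 0.0363 and 0.0226). On the far side of Ceacam10 the ribosomal protein gene Rps19 fell by 0.15 (limma adjusted p = 0.0179).

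Genes of the specific granules are known targets of C/EBP transcription factors, and PU.1 acts on many myeloid promoters. RefSeq promoters (GRCm38.p6), windows of 300 bases around the start of transcription, were matched for 8 of the 9 genes, all but Mmp9, and were searched on both strands. The letters TTNNGNAA, a C/EBP-like motif, occurred in 6 of the 8 and in 40.7% of all 32851 promoters of the same length. GAGGAA, a PU.1-like motif, occurred in 5 of the 8 and in 28.3% of all promoters. Camp had neither in this window, and Ceacam10 had GAGGAA alone. The 6 genes with the C/EBP-like letters include Retnlg and Ly6g, which have no expression values here. Ly6g and Ceacam10 had 2 promoters each, 10 in all, so the counts are of genes and the shares of promoters. The promoters of Ltf, Ngp, Mmp8 and Cd177 are shown because they are those of called genes that hold the C/EBP-like letters, with matches in capitals (8 letters for the C/EBP-like motif, 6 for the PU.1-like one).
Ltf, chr9:111019042-111019341, plus strand: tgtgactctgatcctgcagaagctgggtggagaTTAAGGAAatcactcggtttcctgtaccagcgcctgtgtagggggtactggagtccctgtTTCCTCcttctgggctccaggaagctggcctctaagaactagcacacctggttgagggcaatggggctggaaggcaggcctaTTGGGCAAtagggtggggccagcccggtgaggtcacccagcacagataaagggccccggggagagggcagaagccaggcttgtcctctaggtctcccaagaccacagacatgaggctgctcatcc
Ngp, chr9:110419558-110419857, plus strand: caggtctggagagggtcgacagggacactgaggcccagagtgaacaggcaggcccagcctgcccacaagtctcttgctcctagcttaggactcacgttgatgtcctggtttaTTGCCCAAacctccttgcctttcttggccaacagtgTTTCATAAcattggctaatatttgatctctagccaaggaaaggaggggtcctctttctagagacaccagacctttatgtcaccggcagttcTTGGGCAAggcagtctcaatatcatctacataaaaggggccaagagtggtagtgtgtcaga
Mmp8, chr9:7558179-7558478, plus strand: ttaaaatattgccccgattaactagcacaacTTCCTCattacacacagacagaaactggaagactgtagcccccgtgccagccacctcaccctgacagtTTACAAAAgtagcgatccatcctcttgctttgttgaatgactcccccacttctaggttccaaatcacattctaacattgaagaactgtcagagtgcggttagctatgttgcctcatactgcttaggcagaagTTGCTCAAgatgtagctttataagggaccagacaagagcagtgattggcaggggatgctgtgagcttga
Cd177, chr7:24760262-24760561, minus strand: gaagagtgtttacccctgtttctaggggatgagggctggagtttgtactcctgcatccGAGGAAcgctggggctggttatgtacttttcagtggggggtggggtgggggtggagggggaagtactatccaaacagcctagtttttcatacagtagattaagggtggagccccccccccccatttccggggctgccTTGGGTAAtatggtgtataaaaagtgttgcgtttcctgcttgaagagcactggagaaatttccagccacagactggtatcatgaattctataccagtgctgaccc
In the Ngp promoter the matches start at bases 113, 149 and 240 of the 300 shown, and in that of Ltf the C/EBP-like ones start at bases 34 and 176. A match is a run of letters, not a measured binding site.

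Other neutrophil genes were counted from lists of related genes. For comparison, 23.8% of all tested genes were called higher. All 5 genes of the primary granules rose, with a median of 2.62. Prtn3, the proteinase that CD177 holds in human cells, read 8.46, 8.32, 8.21, 8.03, 7.71 and 7.69 in threat animals 1 to 6, against 4.63, 4.65 and 4.50 in the control pools, a rise of 3.48 (SE 0.15). The peroxidase gene Mpo and the elastase gene Elane rose by 2.95 (SE 0.20) and 2.62 (SE 0.17), and the cathepsin G gene Ctsg by 2.40 (SE 0.15). As in the 7 genes above, threat animals 5 and 6 were the lowest of their group in Prtn3, Mpo and Elane. Levels of these genes cannot be set against one another across probe sets.

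Of 15 other genes of specific and gelatinase granule proteins, 12 rose and 1 fell, with a median of 0.42. Hp, which encodes the haemoglobin scavenger haptoglobin, rose by 1.82 (SE 0.068), and Lcn2, which encodes a siderophore-binding lipocalin, by 1.46 (SE 0.063). The integrin chains of CD11b and CD18, which granules carry to the surface, rose by 0.57 (Itgam, SE 0.051) and 0.21 (Itgb2, SE 0.042). The lysozyme gene Lyz2, named for the highest mean of the list, rose by 0.12 (limma adjusted p = 0.0480). Itgam, Itgb2 and Lyz2 were also counted above among the markers of the sort antigen and of myeloid cells. The gene that fell, named after its value was seen, was Adam8, a membrane metalloproteinase (-0.31, SE 0.064). Olfm4 and Slc11a1, likewise named after the fact, did not pass, with differences of 0.20 and -0.06.

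Of 12 other genes of mature neutrophils, 11 rose and 1 fell, with a median of 0.97. The selected cells are called monocytes in the protocol, and which cells carry the RNA of these genes was not tested. Lrg1, a leucine-rich glycoprotein, rose by 3.34 (SE 0.080) and Wfdc21 by 2.58 (SE 0.063). The chemokine receptor gene Cxcr2, through which neutrophils are called from the marrow, rose by 1.31 (SE 0.087), and Csf3r, the receptor for granulocyte colony-stimulating factor, by 0.46 (SE 0.053). The calprotectin genes S100a8 and S100a9 rose by 0.39 (SE 0.044) and 0.47 (SE 0.043). Il1r2, the decoy receptor for interleukin 1, was the gene that fell (-0.45, SE 0.069), and is named after its value was seen.

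Of 6 regulators of the granule genes, 2 rose and 2 fell, and the median difference was 0.067. Cebpe, the remaining regulator on that list, had no probe set naming it alone and was not tested. Over all tested genes 23.8% were called higher and 45.8% in either direction, and nothing particular to the regulators is read from their counts, nor from those of the next 2 lists. Cebpd rose by 1.63 (SE 0.049) and Spi1, which encodes PU.1, by 0.52 (SE 0.056), whereas Cebpb differed by 0.11 (limma adjusted p = 0.0706). Cebpa and Runx1, the 2 that fell and named after their values were seen, had differences of -0.18 and -0.33, and in Cebpa the values of the groups overlapped. Gfi1, a repressor needed for granulocytes, differed by 0.02 without passing. Of 6 genes of inhibitors, receptors and partners of the set's proteins, 3 rose and 1 fell, with a median of 0.24. The metalloproteinase inhibitor gene Timp2 rose by 0.79 (SE 0.063), while Timp1 differed by 0.12 (limma adjusted p = 0.169). Pecam1, which encodes a partner of human CD177 on endothelium, fell by 0.75 (SE 0.095). Reck, a membrane inhibitor of metalloproteinases, and Lrp1, a receptor that clears them, rose by 0.43 and 0.37, though the values of the groups overlapped in both. The channel gene P2rx7 differed by 0.08 without passing. Among 8 family relatives, 4 rose and 2 fell, with a median of 0.30. Mmp14 and Mmp13, both collagen-cutting metalloproteinases, rose by 1.94 (SE 0.089) and 1.73 (SE 0.081). The macrophage elastase gene Mmp12 and Mmp19 fell by 1.02 and 0.74, while Ceacam1 and Retnla each rose by 0.48. Retn and Ceacam2 differed by 0.12 and 0.00 and did not pass. The values of Reck, Lrp1, P2rx7 and these 6 relatives were known when they were picked for mention.

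**Figure D4:**
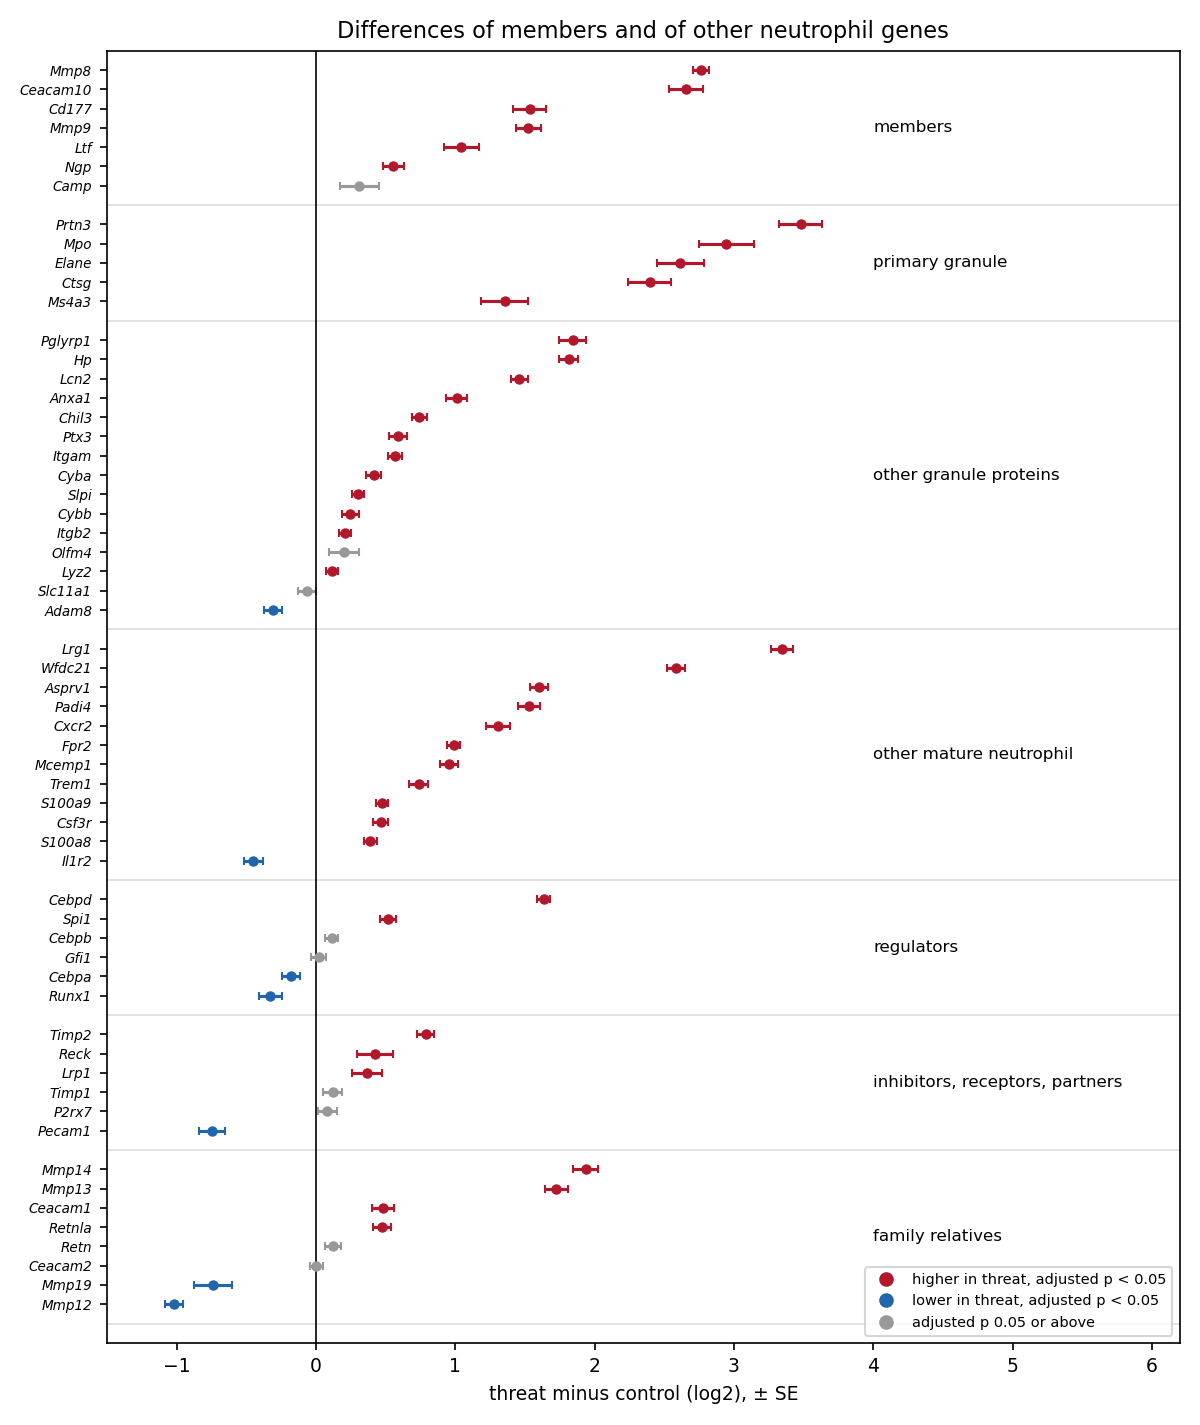
Threat minus control (log2, horizontal axis) with limma's SE for the 7 tested genes and for 6 lists of related genes, red where higher and blue where lower in threat animals at an adjusted p under 0.05 and grey otherwise. The primary granule genes lie between 1.36 and 3.48, and the 7 genes between 0.31 and 2.76.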

How the data were processed

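The authors deposited log2 expression values per probe set, and per the submitters' processing notes used RMA. The version of RMA was not given in the sources used here. The log base was read from the values. RMA gives no detection call and assumes similar distributions on all arrays. The set, the related lists and the tests were chosen with earlier results of these data known. Of 45037 probe sets other than controls, 34945 name 1 gene in the platform annotation, with symbols updated by Entrez number. Genes were kept at or above the 40th percentile of mean signal. Differences were fitted with limma 3.58.1 in R 4.3.3 (lmFit, eBayes, all 9 arrays), with Benjamini-Hochberg adjustment over 13079 genes at 0.05. The SE is limma's. Single differences and pairs were also compared by exact permutation, two-sided. The fit was tested on simulated data. Groups came from the stress label, and no label gives a batch.

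Named were all members, the 2 related genes of each list with the smallest p, that with the highest mean and a fixed group of lineage genes. A planned protein comparison was not made, since no protein sequences were used here. Array number limits the precision. Correlations between threat animals were added after the data were seen. Alternatives covered the filter, probe set rule, normalization, weights, number pairs and leaving out each array.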

Additional observations from a re-analysis of the deposited data

Results flagged for a closer look

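Among 59 neutrophil-related genes examined, 5 had a threat animal set apart from the other 5 by a gap above Dixon's 95% critical value of 0.625 of the group's range. Chance flags about 1 in 20 groups. None of the 7 tested genes of the set was among them. Threat animal 6 had the lowest Gfi1 value, 4.19 against 4.33 in the next animal, the lowest Runx1 value, 6.27 against 6.51, and the highest Ceacam2 value, 3.90 against 3.80. Gfi1 and Ceacam2 were read low on the scale, and equal values recurred. Gfi1 read 4.342 in threat animals 1 and 4, and Ceacam2 read 3.802 in threat animals 1, 3 and 5. Whether the gaps of these dim genes differ from background was not tested. Threat animal 1 had the lowest Mmp12 value, 5.14 against 5.32, and the lowest Mmp14 value, 8.93 against 9.21.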

How the results depend on the processing

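The count of 6 risen genes in the set was 6 or 7 under all 21 alternatives, and 7 without threat animal 5 or 6 or with the block below, each through Camp. The difference of each gene kept its sign throughout, and Ltf, Ngp, Mmp8, Mmp9, Cd177 and Ceacam10 passed the test in each. Ceacam10 ran from 1.91 with the mean of its probe sets to 2.95 with its next brightest one, a setting chosen after seeing the data. Camp ran from 0.21 with quantile normalization to 0.40 without control pool 1-2. Fitting the number pair as a replicate block called Camp (0.31, limma adjusted p = 0.000916) and 5944 genes in all, but over all genes the numbers did not pair the samples: deviations of same-numbered arrays correlated at 0.15, -0.15 and -0.029, and not every number correlated best with its own. In the 7 genes of the set, pool 1-2 and threat animal 1 lay above their group means in every gene, and threat animal 2 in all but Mmp8. Pool 5-6 and threat animals 5 and 6 lay below in every gene. In Camp each threat animal exceeded the pool of its number. The 7 genes moved together over the threat animals, and whether the numbers pair the samples in these genes was not tested. With threat animals averaged in number pairs and no block, the adjusted p of Camp was 0.127. The count over all genes ran from 5310 without control pool 5-6 to 6283 with the pools given a weight of 2. Pairs with unequal change numbered 18 to 20; with threat animals averaged in number pairs, 3 against 3, no pair could pass, since the smallest p is 0.1. The 9 arrays limit the precision, and no detection call was used.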

Other observations

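Genes outside the set were ranked by how closely their deviations from the group means followed the mean deviation of the 7 tested genes over the 9 arrays, a description with no test. Of 13072 genes, 196 had a Pearson correlation above 0.9, and the median was 0.033. The 8 highest were Hsd11b1 (0.999), Tpd52 (0.995), Xdh (0.989), Pclaf (0.987), Ccnd3 (0.986), H2ax (0.985), Serpinb1a (0.985) and Lta4h (0.981). The genes of the set, each against the mean of the other 6, had 0.89 for Mmp8 to 0.991 for Ngp.

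Hsd11b1 encodes the enzyme that regenerates active glucocorticoid from its inert form. It read 8.26, 8.18, 8.12, 8.12, 7.86 and 7.91 in threat animals 1 to 6, against 6.81, 6.72 and 6.62 in the control pools, a rise of 1.36 (SE 0.086, limma adjusted p = 7.3e-08). Serpinb1a, an inhibitor of neutrophil serine proteases, rose by 0.83 (SE 0.14), Lta4h, an enzyme of leukotriene B4 synthesis, by 0.42 (SE 0.11), and Xdh, the xanthine oxidoreductase, by 0.94 (SE 0.060). Of the cell cycle genes among the 8, the replication factor gene Pclaf rose by 1.36 (SE 0.15) and the cyclin gene Ccnd3 by 0.74 (SE 0.097). H2ax, a histone gene, followed the set within the groups while its difference between them was 0.096 (limma adjusted p = 0.522).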
